A study of Mus musculus with 8 samples.

Results

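The genes described here are the replication-dependent histone genes, which encode the linker histone H1 and the core histones H2A, H2B, H3 and H4 made when DNA is copied. They were chosen by name alone: the file symbol is H2ac, H2bc, H3c or H4c with a number, H1f1 to H1f5, or an older symbol that begins with Hist1h, Hist2h or Hist3h. The rule took 57 of the 17264 genes listed in any table, of which 5 encode H1, 15 H2A, 14 H2B, 12 H3 and 11 H4. The tissue was inguinal white adipose tissue (iWAT), the fat pad under the skin of the groin, from C57BL/6 mice that were 9 weeks old and, by the study's methods, male and kept in the cold for a week. Y1CTL mice carried Ythdf1 flox/flox alone, and Y1cKO mice carried the same alleles with Adipoq-Cre, a recombinase driven by an adipocyte promoter, so that other cell types of the tissue kept Ythdf1, which encodes a reader of m6A-modified mRNA. Each genotype had 2 RNA-seq and 2 Ribo-seq libraries, 8 in all. By the labels a smaller portion of the lysed tissue went to RNA-seq and a larger one to Ribo-seq. RNA-seq was made from RNA with a poly(A) tail, bound with oligo(dT), whereas Ribo-seq was made from RNA fragments protected by ribosomes, with no selection for poly(A) stated.

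Replication-dependent histone mRNAs are the class of animal mRNAs that mostly end in a conserved stem-loop instead of a poly(A) tail. The stem-loop is bound by the protein SLBP, and the U7 snRNP cuts the transcript behind it. Their genes lie in clusters, lack introns as a rule and are transcribed when a cell passes through S phase, and some of them can also give a polyadenylated transcript in cells that have stopped dividing. Replication-independent histones such as H3.3 are encoded elsewhere and have ordinary polyadenylated mRNA. A poly(A)-selected library and a footprint library can therefore sample the 57 genes differently even from the same tissue. The comparison of the 2 assays is the one these genes allow, within the limit of the marker levels given below, which differ between the assays.

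All 57 genes matched a RefSeq gene, and 48 lay on chromosome 13 and 9 on chromosome 3. A RefSeq promoter entry (build GRCm38.p6) was found under the file symbol for 48 of them, and none was found under the names H2bc4, H3c7, H4c14, H3c1, H2bc21, Hist1h2ap, Hist1h2bp, Hist1h2an and Hist1h4n. In each family, the 150 bases before the start of the gene with the highest mean Ribo-seq level among those with an entry are shown, because these are the genes with the most footprints per length in the results that follow. Sequences read 5′ to 3′ along the gene, and the coordinates belong to GRCm38.p6 and not to the older build of the deposited tables. Capitals mark matches, on either strand, to CCAAT, to TATAAA, to the octamer ATTTGCAT and to AAACACA, an element described in H1 promoters.
H1f4, chr13:23622559-23622708, minus strand: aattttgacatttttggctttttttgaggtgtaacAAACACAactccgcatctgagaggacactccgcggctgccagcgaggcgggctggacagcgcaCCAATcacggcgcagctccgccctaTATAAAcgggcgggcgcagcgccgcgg
H2ac20, chr3:96220881-96221030, minus strand: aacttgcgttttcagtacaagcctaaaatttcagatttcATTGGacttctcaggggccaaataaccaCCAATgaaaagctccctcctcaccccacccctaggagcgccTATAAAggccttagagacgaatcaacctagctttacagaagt
H2bc18, chr3:96269550-96269699, plus strand: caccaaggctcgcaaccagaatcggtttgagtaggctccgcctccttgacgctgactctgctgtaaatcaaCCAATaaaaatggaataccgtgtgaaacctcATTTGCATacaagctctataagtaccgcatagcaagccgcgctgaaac
H3c3, chr13:23745522-23745671, minus strand: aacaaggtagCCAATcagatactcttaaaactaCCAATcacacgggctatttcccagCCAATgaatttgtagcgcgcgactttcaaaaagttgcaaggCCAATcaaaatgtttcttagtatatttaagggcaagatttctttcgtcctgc
H4c8, chr13:23530894-23531043, plus strand: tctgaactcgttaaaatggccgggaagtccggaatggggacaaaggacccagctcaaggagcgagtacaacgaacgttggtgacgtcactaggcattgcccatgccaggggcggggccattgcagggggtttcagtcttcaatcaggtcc
The H1f4 window held all of these motifs except the octamer. The H2bc18 window held the octamer and 1 CCAAT match. The H2ac20 window held 2 CCAAT matches, and a match to TATAAA stood nearer its start. In the H3c3 window there were 4 CCAAT matches and no other motif. The H4c8 window held none of these letters, which says only that they are not in these 150 bases.

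Over the 250 bases before the start, CCAAT was found in 40 of the 48 histone promoters and in 34.5% of 27025 promoters of the whole table. These were all 5 H1, 13 H2A and 11 H2B promoters and 8 of 10 H3 promoters, but only 3 of 9 H4 promoters. TATAAA was found in 23 of the 48 and in 12.97% of all promoters. The octamer ATTTGCAT stood in 11 of the 48, which were 6 of 13 H2A and 5 of 11 H2B promoters and no others, against 1.61% of all promoters. AAACACA stood in 7 of the 48, among them 4 of the 5 H1 promoters, against 6.22% of all. The Ribo-seq level of the genes with the octamer had a median of 28.5 RPKM in H2A and 33.0 RPKM in H2B, beside 10.6 and 15.8 RPKM without it. The RNA-seq medians were 0.698 and 4.15 RPKM with the octamer and 1.02 and 3.33 RPKM without it. Both are a description over few genes that share clusters and partners. RPKM counts reads per kilobase of gene model, scaled to the library's total.

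Among genes with a promoter entry, 6 places were found where an H2A and an H2B gene started head to head within 300 bases. The starts lay 163 to 248 bases apart, and CCAAT stood between them in all 6 and the octamer in 2. Pairs with a gene that has no entry are not covered. The stretch of 179 bases between H2ac8 and H2bc8 is shown as the one of the 2 with the higher footprint levels.
H2ac8 and H2bc8, chr13:23571221-23571399, plus strand: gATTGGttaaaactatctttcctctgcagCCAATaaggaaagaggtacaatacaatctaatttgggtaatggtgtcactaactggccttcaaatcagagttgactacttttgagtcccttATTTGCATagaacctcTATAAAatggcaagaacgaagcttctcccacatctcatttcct
Both genes of this pair had footprints at a like level, 31.5 ± 5.62 RPKM for H2ac8 and 33.0 ± 9.64 RPKM for H2bc8 (SD, n = 4). Other pairs were unequal: Ribo-seq gave H2ac15 23.3 ± 2.38 RPKM and its partner H2bc15 9.02 ± 1.21 RPKM, while RNA-seq gave means of 12.5 and 18.2 RPKM, with H2bc15 well above H2ac15 in both Y1CTL libraries and not in the Y1cKO libraries.

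The 4 RNA-seq libraries held 3958284 to 16429017 reads on listed genes and the 4 Ribo-seq libraries 7364523 to 11862838, of which 2163 to 6826 and 5666 to 10768 fell on the 57 genes. RNA-seq of Ythdf1 gave 8.01 and 11.5 RPKM in Y1CTL and 7.17 and 7.98 RPKM in Y1cKO, a log2 difference of -0.33 (SE 0.24, adjusted p = 0.587 by limma), but the value covers the whole gene and not the deleted exon, so that it does not check the deletion. Adipoq, which defines adipocytes, was at 264 to 908 RPKM in RNA-seq and 2840 to 4113 RPKM in Ribo-seq. Some libraries held transcripts of other tissues. All 21 lymphocyte and lymph node markers exceeded 1 RPKM in the 4 Ribo-seq libraries (median of the list, 34.3 to 52.1 RPKM) and in Y1CTL RNA-seq replicate 2 (14.6 RPKM), whereas 0 to 2 of them did so in the other 3 RNA-seq libraries (at most 0.236 RPKM). Skeletal muscle markers had a median of 19.8 RPKM in Y1cKO RNA-seq replicate 1, and no other library exceeded 0.499 RPKM. The 34 S phase and cell division genes, whose mRNA is polyadenylated, had a median of 1.19 to 2.50 RPKM in RNA-seq and 6.10 to 8.85 RPKM in Ribo-seq. In bulk tissue, fewer cells of a type and less RNA per cell cannot be told apart. The labels describe lysed tissue divided between the assays, and the lymphocyte marker values above do not go with that. A difference between the assays can therefore not be told apart from a difference in the cells they sampled. The labels do not say that replicates came from separate animals, and p-values cover no more than the spread among the libraries sequenced.

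Histone genes took a larger share of the reads in Ribo-seq than in RNA-seq. Shares were taken over the 55 genes with an RNA-seq value. H2ac18, H3c14 and H3c15 are among them and counted as 0 in Ribo-seq, which does not list them. RNA-seq gave 0.0546% and 0.0501% of the reads in Y1CTL and 0.0445% and 0.0415% in Y1cKO. Ribo-seq gave 0.0889% and 0.0744% in Y1CTL and 0.0817% and 0.0998% in Y1cKO. Each Ribo-seq share lay above each RNA-seq share, with a ratio of means of 1.81, which was 1.56 within Y1CTL and 2.11 within Y1cKO. Without the RNA-seq library rich in lymphocyte markers and the one with muscle transcripts, the ratio was 1.79. The Ribo-seq libraries kept are rich in lymphocyte markers and the RNA-seq libraries left are not, so that this ratio says nothing of lymphoid content. The other lists differed too: the share was 2.77 times as large in Ribo-seq for S phase genes, 1.57 times for 11 replication-independent histone genes and 1.88 times for adipocyte markers. For lymphocyte markers 1 library sets the ratio: their share was 0.0865% to 0.115% in Ribo-seq, 0.0815% in Y1CTL RNA-seq replicate 2 and no more than 0.00133% in the other 3. The part of the lymphoid and S phase genes' difference in the histone genes' own was not tested.

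**Figure D1:**
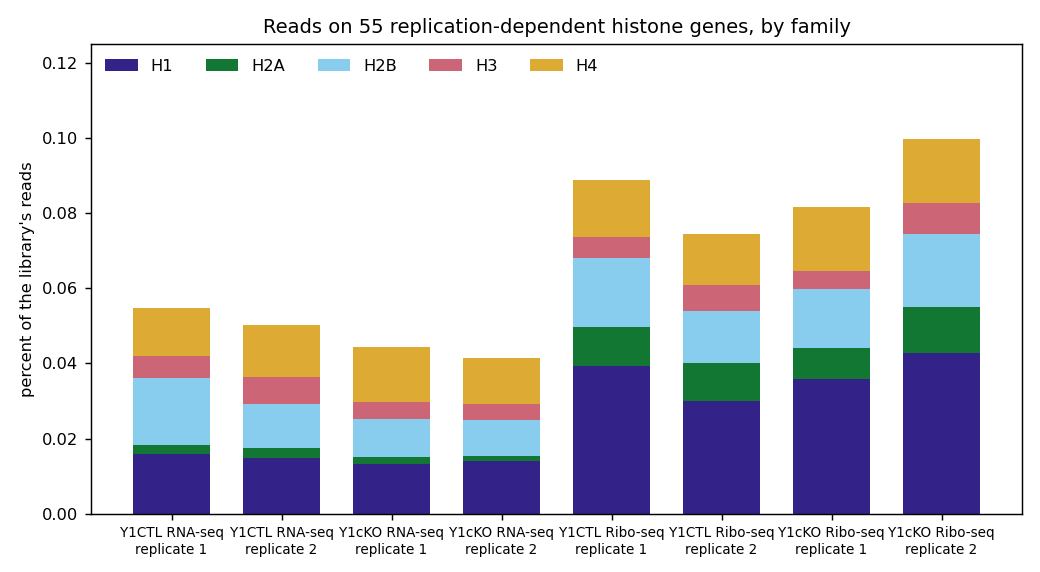
Share of each library's reads, in percent, that fell on 55 replication-dependent histone genes, stacked by family, with 1 bar per library. The 4 Ribo-seq bars reach 0.0744% to 0.0998% and the 4 RNA-seq bars 0.0415% to 0.0546%, and the H2A and H1 parts differ most.

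The families differed in this ratio. H2A genes took 0.00136% to 0.00250% of the reads in RNA-seq and 0.00830% to 0.0124% in Ribo-seq, a ratio of 5.20 over 14 genes. H1 genes took 0.0133% to 0.0160% and 0.0301% to 0.0427%, a ratio of 2.54. The groups of libraries did not overlap for these 2 families. For H2B, H3 and H4 the ratios were 1.37, 1.16 and 1.18, and the RNA-seq and Ribo-seq libraries overlapped in each. Within Y1CTL these ratios were 1.09, 0.938 and 1.09, and within Y1cKO 1.78, 1.504 and 1.26. The H3 ratios are lowered by H3c14 and H3c15, which had 326 and 36 RNA reads and counted as 0 in Ribo-seq. The H3 value of 0.938 is therefore not read as a lower share in Ribo-seq.

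Per gene, the 2 assays ranked the histone genes in part differently, with RNA-seq per transcript length and Ribo-seq per coding length. Of the 10 highest genes in each assay, 7 were the same. Across the 55 genes, which are not independent replicates, Pearson's r of the log2 levels was 0.963 to 0.985 between Ribo-seq libraries, 0.789 to 0.953 between RNA-seq libraries and 0.451 to 0.604 between an RNA-seq and a Ribo-seq library. In Ribo-seq the 5 genes with the highest RPKM were H1f4, H1f3, H1f2, H4c14 and H2bc18, with 38.3% to 43.3% of the reads on these genes. The RNA-seq order began with H2bc4, H4c8, H1f2, H4c4 and H2bc18, with 46.3% to 56.9%. In the Ribo-seq order, H1f4, H1f3, H1f2, H4c14, H2bc18, H4c8, H2bc4, H1f5, H4c4, H4c3, H2bc6 and H2ac20, every pair of neighbours overlapped in its range over the 4 libraries, so that the order of neighbours is not set by these data.

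**Figure D2:**
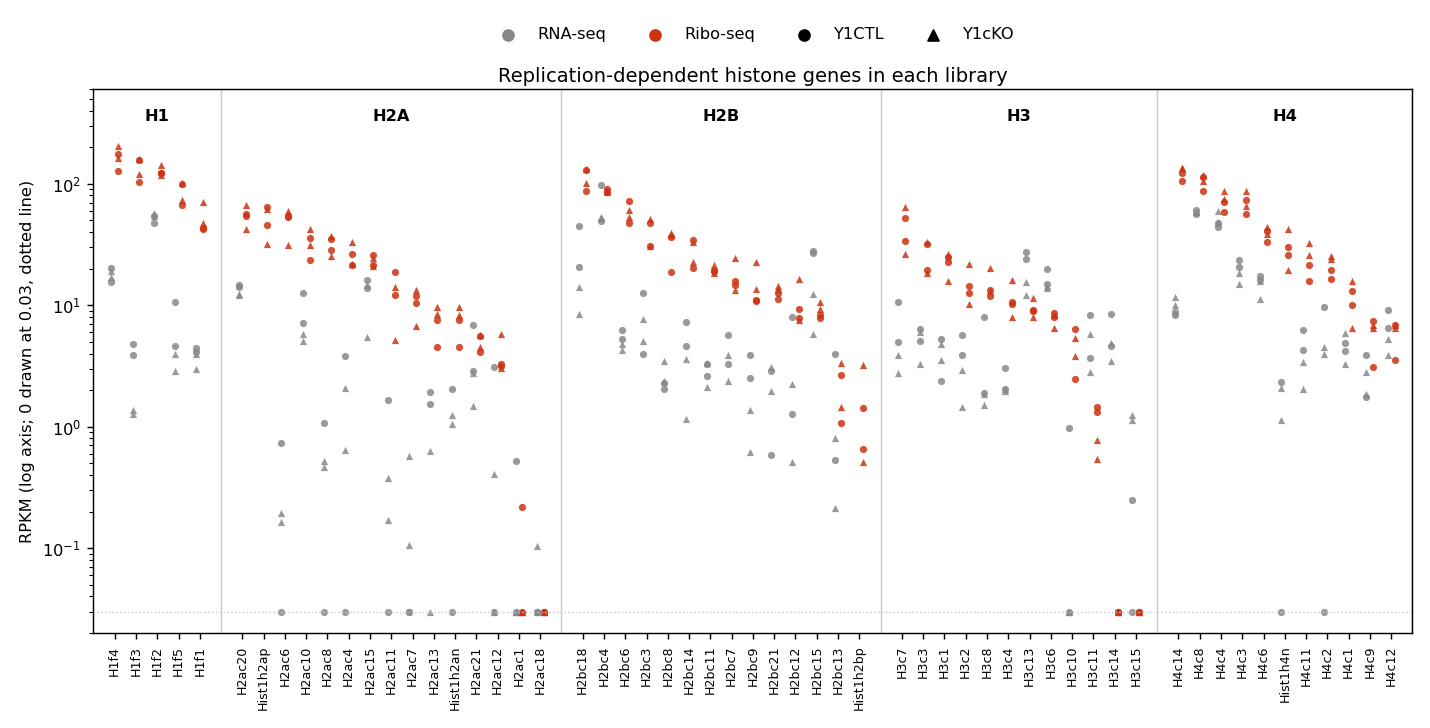
RPKM on a log axis of each of the 57 genes in each library, by family and in order of the mean Ribo-seq level. Grey points are RNA-seq, red points Ribo-seq, circles Y1CTL and triangles Y1cKO, and values of 0 are drawn at 0.03. Red points lie above grey ones for most genes and below them in all libraries for H3c13, H3c6, H3c11 and H3c14.

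For the test, values were set to log2(RPKM + 0.5), a scale that understates the change of low genes, and Ribo-seq was compared with RNA-seq by limma over all 8 libraries, with Benjamini-Hochberg adjustment over the 12777 genes whose mean reached 0.5 RPKM. Each library is a table scaled on its own, with RNA-seq per transcript length and Ribo-seq per coding length, so that the genes are read against all others. Of the 57 histone genes, 52 were tested. Hist1h2ap and Hist1h2bp were in no RNA-seq table, and H2ac1, H2ac18 and H3c15 had a mean under 0.5 RPKM. Of the 52, 44 were higher in Ribo-seq (61.9% of all genes tested were) and 5 were lower (16% of all genes). All 4 Ribo-seq libraries lay above all 4 RNA-seq libraries for 39 genes (57.3% of all genes) and below them for 4 (14.1%). The difference was above 0 for 46 of the 52 (74.8% of all genes). The median log2 difference was 2.31 over the 52 genes and 0.92 over all genes.

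H2ac6, H2ac7 and H3c10 passed the filter only through Ribo-seq and H3c14 only through RNA-seq, so that these 4 had to differ. Among the 48 genes that passed in each assay, 41 were higher (63.2% of all genes under this filter) and 4 lower (14.4%), and the medians were 2.22 and 0.94. With the RNA-seq values put on the coding length as well, 37 of 52 were higher and 7 lower, against 34.2% and 35.6% of all genes, and the medians were 1.59 and 0.01. With all libraries shifted to the same median, 35 were higher and 6 lower, against 39.8% and 32.8% of all genes, and the medians were 1.53 and 0.14.

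**Figure D3:**
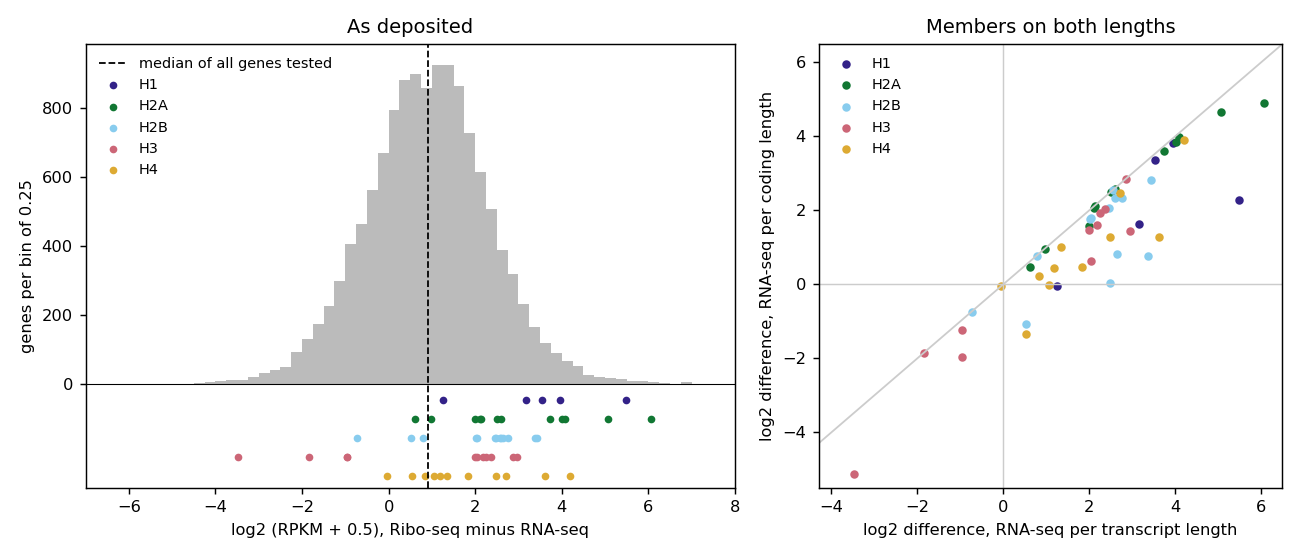
Left, number of genes per bin of 0.25 of the log2 difference between Ribo-seq and RNA-seq for all 12777 genes tested (grey bars, dashed line at the median of 0.92), with the 52 histone genes as points below the axis, coloured by family. Right, the same difference of each histone gene with RNA-seq per transcript length (x axis) and per coding length (y axis). All 52 points lie under the diagonal, since a transcript is at least as long as its coding sequence, and the distance from it is the effect of the length.

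All 5 H1 genes were higher in Ribo-seq, with a median log2 difference of 3.54. H1 binds the DNA between nucleosomes. H1f4 had 20.3 and 15.4 RPKM in Y1CTL RNA-seq, 17.1 and 19.2 in Y1cKO RNA-seq, 176 and 126 in Y1CTL Ribo-seq and 163 and 204 in Y1cKO Ribo-seq, a log2 difference of 3.17 (SE 0.16, adjusted p = 1.6e-06). All footprint values of H1f4 stood far above its RNA values. For H1f3 the RNA-seq values were 4.83 and 3.85 in Y1CTL and 1.38 and 1.26 in Y1cKO, and the Ribo-seq values 157, 103, 121 and 159 RPKM, a log2 difference of 5.49 (SE 0.17, adjusted p = 4.55e-07). The gene model of H1f3 has 6762 bases beyond the coding sequence, and on the coding length its difference was 2.28. H1f2 had the highest RNA values of the family and the smallest difference. Its RNA-seq values were 47.3, 53.7, 54.1 and 57.3 RPKM and its Ribo-seq values 122, 123, 144 and 118 RPKM, a log2 difference of 1.25 (SE 0.11, adjusted p = 2.28e-05) that came to -0.04 on the coding length. H1f5 had 10.5, 4.61, 3.97 and 2.87 RPKM in RNA-seq and 99.7, 66.4, 72.9 and 101 RPKM in Ribo-seq, a log2 difference of 3.96 (SE 0.27). H1f1 rose from 2.98 to 4.43 RPKM in RNA-seq to 42.5 to 70.8 RPKM in Ribo-seq, by 3.54 on the log2 scale.

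Of the H2A genes, whose product pairs with H2B in the nucleosome, 11 of 12 tested were higher in Ribo-seq and none was lower, with a median of 2.55 on either length. H2ac20 had the highest footprint level of the family. It had 14.1 and 14.7 RPKM in Y1CTL RNA-seq, 12.3 and 12.1 in Y1cKO RNA-seq, and 53.8, 56.8, 42.4 and 66.6 RPKM in Ribo-seq, a log2 difference of 1.99 (SE 0.15, adjusted p = 1.09e-05). H2ac6 was nearly absent from RNA-seq, with 0, 0.731, 0.165 and 0.196 RPKM from 22 reads in all, while Ribo-seq gave 54.3, 53.6, 31.5 and 59.9 RPKM from 733 reads. Its fitted log2 difference of 6.07, or 4.91 on the coding length, is a description, since the gene passed the filter only through Ribo-seq. Hist1h2ap, with 45.6, 64.1, 32.1 and 61.9 RPKM in Ribo-seq, was in no RNA-seq table and has no difference. H2ac7 had 5 RNA reads in all and 6.74 to 13.3 RPKM in Ribo-seq. Others had clear RNA levels. H2ac10 was at 5.03 to 12.7 RPKM in RNA-seq and 23.7 to 42.3 RPKM in Ribo-seq, a log2 difference of 2.10 (SE 0.22). H2ac15 had 16.1, 13.8, 14.8 and 5.42 RPKM in RNA-seq and 25.9, 21.6, 21.0 and 24.7 RPKM in Ribo-seq, a log2 difference of 0.97 (SE 0.28, adjusted p = 0.0134) that came to 0.19 with the same median in all libraries (adjusted p = 0.532). H2ac21 did not pass the test, with 1.48 to 6.81 RPKM in RNA-seq, 4.11 to 5.66 RPKM in Ribo-seq and a log2 difference of 0.62 (SE 0.29, adjusted p = 0.0849).

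Among the 13 H2B genes tested, 11 were higher in Ribo-seq and 1 was lower, with a median of 2.49. H2bc18 had 45.1 and 20.6 RPKM in Y1CTL RNA-seq, 14.2 and 8.47 in Y1cKO RNA-seq, and 130, 87.7, 102 and 132 RPKM in Ribo-seq, a log2 difference of 2.56 (SE 0.29, adjusted p = 9.02e-05). H2bc4 had the highest mean RNA level, which rested on Y1CTL RNA-seq replicate 1: in each of the other 3 RNA-seq libraries it lay below H4c8 and H1f2. RNA-seq gave it 97.9, 49.5, 52.1 and 53.2 RPKM and Ribo-seq 91.0, 84.8, 87.3 and 86.1 RPKM, so that the assays overlapped through Y1CTL RNA-seq replicate 1. Its log2 difference was 0.52 (SE 0.20, adjusted p = 0.0426), it turned to -1.08 on the coding length, and its gene model has 778 bases beyond the coding sequence. H2bc6 had 4.25 to 6.27 RPKM in RNA-seq and 47.8 to 72.5 RPKM in Ribo-seq, by 3.38 higher on the log2 scale (SE 0.16). H2bc3 rose from 3.98 to 12.7 RPKM in RNA-seq to 30.6 to 51.2 RPKM in Ribo-seq, by 2.46 (SE 0.36). For H2bc8, the partner of H2ac8 above, RNA-seq gave 2.04 to 3.45 RPKM and Ribo-seq 18.7 to 39.5 RPKM, a log2 difference of 3.43 (SE 0.22, adjusted p = 5.15e-06), the largest of the H2B genes.

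H2bc15 went the other way. It had 27.8 and 27.0 RPKM in Y1CTL RNA-seq, 12.3 and 5.75 in Y1cKO RNA-seq, and 8.25, 7.90, 10.6 and 9.37 RPKM in Ribo-seq, a log2 difference of -0.74 (SE 0.22, adjusted p = 0.0147). The Y1CTL RNA values stood high and the Y1cKO RNA values on both sides of the footprint values. With the sample number as a block the adjusted p was 0.138, over all alternatives it ranged from 0.000309 to 0.549, and within Y1cKO the difference was 0.23.

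Of the 11 H3 genes tested, 7 were higher and 4 lower in Ribo-seq, with a median of 2.05. H3c7 had 5.01, 10.5, 3.90 and 2.75 RPKM in RNA-seq and 33.7, 51.9, 26.5 and 64.6 RPKM in Ribo-seq, a log2 difference of 2.96 (SE 0.34, adjusted p = 0.00011). H3c3, whose promoter is shown above, had 3.28 to 6.42 RPKM in RNA-seq and 18.6 to 33.1 RPKM in Ribo-seq, by 2.19 higher on the log2 scale (SE 0.27). H3c1 and H3c2 were by 2.38 and 2.001 higher, with no overlap of the assays for either gene.

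The 4 H3 genes with lower values in Ribo-seq than in RNA-seq were H3c6, H3c11, H3c13 and H3c14. H3c13 had 23.8 and 27.2 RPKM in Y1CTL RNA-seq, 12.1 and 15.5 in Y1cKO RNA-seq, and 9.09, 8.99, 7.99 and 11.4 RPKM in Ribo-seq, a log2 difference of -0.97 (SE 0.15, adjusted p = 0.000583), with an adjusted p of 0.0762 within Y1cKO. H3c6 had 14.8, 20.002, 13.9 and 14.5 RPKM in RNA-seq and 8.68, 7.99, 8.25 and 6.51 RPKM in Ribo-seq, a log2 difference of -0.96 (SE 0.14, adjusted p = 0.000456). These were the H3 genes with the highest RNA levels, and each footprint value lay under each RNA value. H3c11 had 3.69, 8.33, 5.78 and 2.81 RPKM in RNA-seq and 1.45, 1.33, 0.773 and 0.543 RPKM in Ribo-seq, a log2 difference of -1.84 (SE 0.30, adjusted p = 0.000796). H3c14 had 8.44, 4.64, 3.50 and 4.84 RPKM in RNA-seq, from 326 reads, and was in no Ribo-seq table, so that no fold is given. Its call as lower followed from the 0 it was given in Ribo-seq and is no result. H3c15, in no Ribo-seq table either, had 36 RNA reads. H3c10 was the contrary case, with 2 RNA reads in all and 2.48, 6.32, 5.41 and 3.80 RPKM in Ribo-seq.

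Of the 11 H4 genes, nearly all of which encode the same protein, 10 were higher in Ribo-seq and none was lower, with a median of 1.35. On the coding length 6 were higher and 1 lower, with a median of 0.46. H4c14 had 8.83, 8.28, 11.6 and 10.1 RPKM in RNA-seq and 123, 105, 136 and 135 RPKM in Ribo-seq, a log2 difference of 3.62 (SE 0.10, adjusted p = 4.05e-07). On the coding length its difference was 1.28. H4c8 was steady in RNA-seq, with 56.4, 60.9, 58.9 and 58.9 RPKM, and had 113, 87.4, 119 and 105 RPKM in Ribo-seq, a log2 difference of 0.84 (SE 0.12, adjusted p = 0.000311). That call was lost on the coding length (0.24, adjusted p = 0.103) and with the same median in all libraries (0.057, adjusted p = 0.700). H4c4 had 44.2, 47.8, 60.2 and 48.1 RPKM in RNA-seq and 58.4, 70.7, 87.1 and 74.9 RPKM in Ribo-seq, a log2 difference of 0.53 (SE 0.12, adjusted p = 0.00509) that turned to -1.34 on the coding length. H4c3 rose from 14.99 to 23.7 RPKM in RNA-seq to 55.8 to 87.8 RPKM in Ribo-seq, by 1.84 (SE 0.15). Hist1h4n had 0, 2.34, 2.09 and 1.13 RPKM in RNA-seq and 30.0, 25.9, 19.4 and 42.3 RPKM in Ribo-seq, a log2 difference of 4.20 (SE 0.53, adjusted p = 0.000185), the largest of the H4 genes. H4c12 showed no call, with 3.90 to 9.04 RPKM in RNA-seq, 3.52 to 6.82 RPKM in Ribo-seq and a log2 difference of -0.04 (SE 0.23, adjusted p = 0.866).

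The length of the gene model moved with these differences. The annotated transcript of 10 of the 55 genes has at most 3 bases beyond the coding sequence, 26 have 9 to 240 further bases and 19 have 314 to 6762. The median log2 difference was 0.88, 2.22 and 2.48 in these 3 classes, and 0.87, 2.04 and 0.63 with RNA-seq on the coding length. Genes with long models shift most by construction, since the change of length multiplies RNA-seq values by transcript length over coding length. In the middle class, all 4 Ribo-seq libraries lay above all RNA-seq libraries for 21 of 26 genes, beside 5 of 10 in the first class and 13 of 19 in the third. Among all other tested genes with a coding length in the range of the histone genes, 309 to 669 bases, 1804 in number, 85.5% were higher in Ribo-seq, beside 84.6% of the 52 histone genes. Their median was 1.97 as deposited and 0.63 on the coding length, beside 2.31 and 1.59 for the histone genes. The share of genes called was therefore near that of other short genes, while their models differed, with a median of 906 bases beyond the coding sequence against 132 for the histone genes.

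**Figure D4:**
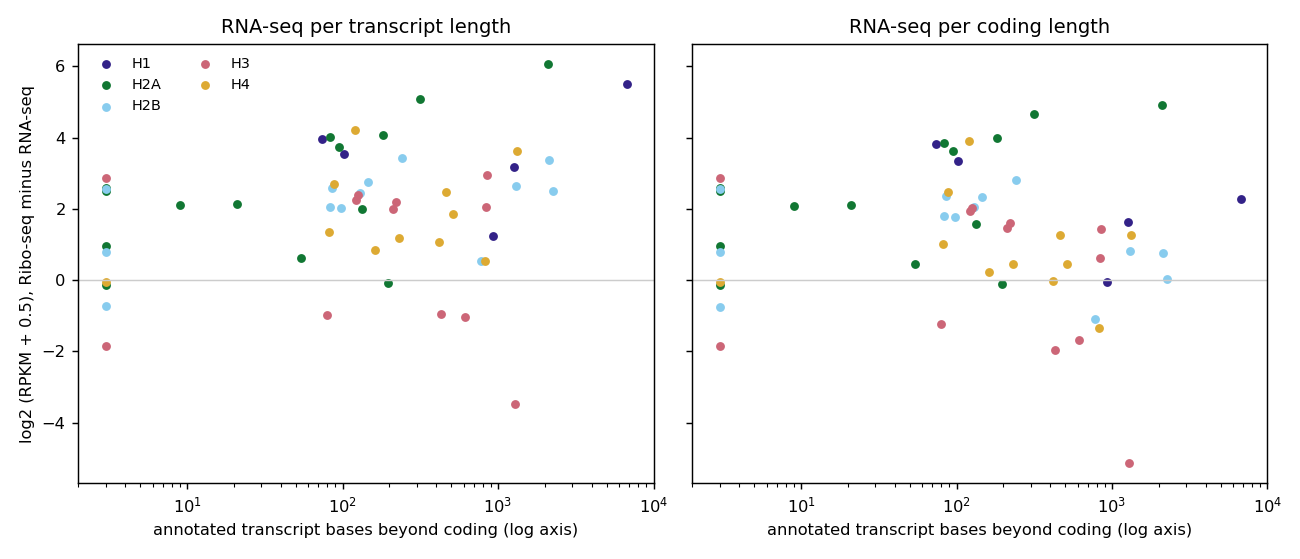
Log2 difference between Ribo-seq and RNA-seq of each of the 55 genes (y axis) against the annotated transcript bases beyond the coding sequence (x axis, log), coloured by family, with RNA-seq per transcript length and per coding length in the 2 panels. Genes with over 300 further bases have a median of 2.48 in the first panel and 0.63 in the second.

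Several histone genes are near copies of one another, and how reads that match more than 1 copy were counted is not given in the sources used here, so that the level of a single copy is uncertain. H2ac13 and Hist1h2an had 35, 13, 36 and 30 against 35, 13, 36 and 29 footprints in the 4 libraries. H4c12 and H4c9 had 25, 8, 20 and 18 against 27, 7, 19 and 19. The footprints of each pair were equal within 2 reads, whereas their RNA reads were not.

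The lists of related genes place these values. All 11 genes listed as replication-independent histones were higher in Ribo-seq, with a median log2 difference of 2.22. H3f3a, which encodes H3.3, had 56.0, 49.5, 63.2 and 59.8 RPKM in RNA-seq and 638, 732, 681 and 700 RPKM in Ribo-seq, by 3.58 higher (SE 0.11). H3f3b and H2az1, the latter encoding the variant H2A.Z, were by 3.60 and 3.61 higher. Footprints of H3f3a thus exceeded in every library those of any replication-dependent gene, the highest of which was H1f4 at 204 RPKM. Of 13 tested genes for histone mRNA processing and histone gene transcription, 9 were higher and 2 lower, with a median of 1.37. Slbp, which encodes the stem-loop binding protein, had 6.23, 10.8, 7.60 and 9.84 RPKM in RNA-seq and 57.5, 42.8, 47.7 and 53.9 RPKM in Ribo-seq, by 2.50 higher (SE 0.20, adjusted p = 1.35e-05). Cpsf3, the nuclease that cuts histone pre-mRNA, and Mif4gd, a partner of SLBP in translation, were by 1.61 and 1.37 higher. Of 18 histone chaperones, 12 were higher and 4 lower with a median of 1.50, and Nap1l1, Nap1l4 and Rbbp4 were by 3.03, 2.07 and 2.78 higher. Of 34 S phase and cell division genes, 32 were higher and none lower with a median of 1.83. Pcna, the sliding clamp of replication, Rrm1, a subunit of ribonucleotide reductase, and Gmnn, which encodes geminin, were by 3.38, 2.86 and 3.10 higher. All 21 lymphocyte and lymph node markers were higher with a median of 4.79, 10 of 12 adipocyte markers were higher and 1 lower with a median of 1.48, and 4 of 6 beige adipocyte markers were higher with a median of 2.53. Of 13 muscle markers tested, 2 were higher and none lower with a median of -0.68, but without Y1cKO replicate 1 3 of 4 were higher with a median of 1.58, and without Y1cKO replicate 2 10 of 13 were lower with a median of -1.89. With RNA-seq on the coding length, 6 replication-independent histone genes were higher and 1 lower with a median of 0.61, 5 processing genes higher and 4 lower with a median of 0.03, 12 chaperones higher and 5 lower with a median of 1.003, and 27 S phase genes higher and none lower with a median of 1.48.

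Each RNA-seq library was also set against Ribo-seq on its own. Against Y1CTL RNA-seq replicate 2, the library in which all lymphocyte markers exceeded 1 RPKM, all 4 Ribo-seq libraries were higher for 44 of 55 histone genes (68.9% of all genes), with a median log2 difference of 1.74. Against Y1CTL replicate 1 the number was 42 (69.9% of all genes), with a median of 1.82. Against Y1cKO replicates 1 and 2 it was 45 (64.1%) and 47 (66.9%), with medians of 2.21 and 2.57. All genes tested had medians of 0.77 to 1.03 in these 4 comparisons. Without the 2 RNA-seq libraries that hold lymphoid or muscle transcripts, the median log2 difference of the histone genes was 2.57. That fit kept all 4 Ribo-seq libraries, which hold lymphocyte markers as well.

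The genotypes were then compared within each assay. In Ribo-seq, none of the 53 histone genes tested passed an adjusted p of 0.05 by limma, and neither did any other gene (0% called in either direction). At an unadjusted p under 0.05, 3 were higher in Y1cKO (1.62% of all genes) and 1 was lower (1.13%). With voom on reads 1 was higher and none lower at that threshold, without a share of all genes to read it against. Both Y1cKO libraries lay above both Y1CTL libraries for 11 genes (15.4% of all genes) and below them for 1 (14.1%), and none of these differed by more than 1 on the log2 scale. The difference was above 0 for 39 of the 53 (51.5% of all genes). The median was 0.14 over the histone genes and 0.01 over all genes, and it turned to -0.07 without Y1cKO replicate 2. Fits with a replicate left out rest on a lone library in a group, so that calls of single genes in them are not read here.

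In RNA-seq, the Y1CTL libraries held 3958284 and 4963613 reads and the Y1cKO libraries 12211352 and 16429017, so that depth and genotype cannot be told apart. None of 50 histone genes passed an adjusted p of 0.05 by limma here either (0% of all genes in either direction). At an unadjusted p under 0.05, 12 were lower in Y1cKO (1.79% of all genes) and 1 was higher (10%). With voom, 6 were lower and none higher at that threshold, without a share of all genes to read them against. The Y1cKO libraries lay below both Y1CTL libraries for 21 genes (10.7% of all genes) and above them for 5 (36.9%). The difference was above 0 for 14 of the 50 (67.2% of all genes). The median log2 difference was -0.37 over the histone genes and 0.17 over all genes. H2bc15, at 27.8 and 27.0 RPKM in Y1CTL and 12.3 and 5.75 RPKM in Y1cKO, had a log2 difference of -1.64 (SE 0.35, adjusted p = 0.401). H1f3 and H2bc18 differed by -1.40 (SE 0.28, adjusted p = 0.401) and -1.44 (SE 0.42, adjusted p = 0.402), with both Y1cKO libraries under both Y1CTL libraries. H2ac13, with 1.93 and 1.54 against 0.625 and 0 RPKM from 9 reads, differed by -1.57. H3c15 had 0.248 and 0 against 1.12 and 1.25 RPKM, the 1 gene that stood apart in the other direction by more than 1. Calls of single genes in fits with a Y1CTL replicate left out rest on a lone Y1CTL library and are not read here either.

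In the same RNA-seq libraries, S phase genes had a median difference of -0.63, lymphocyte markers of -2.13, beige adipocyte markers of -1.53, adipocyte markers of 0.55 (11 of 12 above 0) and muscle markers of 2.63, with no gene of these lists past the adjusted threshold. Of the 34 S phase genes, 12 were lower at an unadjusted p under 0.05 and none was higher. The part of these in the histone values was not tested. Y1CTL RNA-seq replicate 2 and Y1cKO RNA-seq replicate 1 are the RNA-seq libraries with the lymphoid and muscle transcripts. Without them 1 RNA-seq library per genotype is left and no test. Between the 2 libraries left, 34 of the 50 histone genes were lower in Y1cKO (68%) with a median of -0.37, beside 37.2% of all genes and 0.12.

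**Figure D5:**
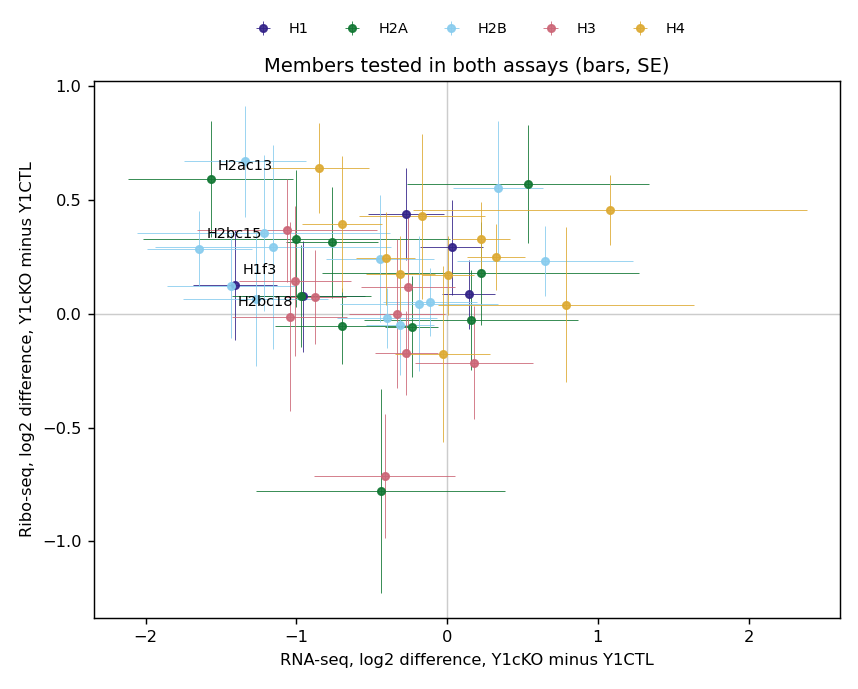
Log2 difference between Y1cKO and Y1CTL in RNA-seq (x axis) and in Ribo-seq (y axis) of the 48 histone genes tested in both assays, coloured by family, with bars for the SE. Points spread from -1.64 to 1.08 on the x axis and less on the y axis, and none of these differences passed the adjusted threshold in either assay.

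The ratio of Ribo-seq to RNA-seq was compared between the genotypes as an interaction of assay and genotype, which uses the same libraries as both comparisons above and is not independent of them. None of 48 histone genes passed an adjusted p of 0.05 (0% of all genes in either direction). At an unadjusted p under 0.05, 9 were higher in Y1cKO (1.53% of all genes) and none was lower (7.12%). With voom 6 were higher and none lower at that threshold, again without a share of all genes to read them against. The interaction was above 0 for 37 of the 48 (34.7% of all genes), with a median of 0.43 beside -0.17 over all genes. For overlap, Ribo-seq minus RNA-seq was taken between libraries of the same number, although these numbers were taken as names only. Among genes whose genotypes did not overlap in these differences, the largest interaction values were 2.16 for H2ac13, 2.01 for H2bc9, 1.93 for H2bc15 and 1.56 for H2bc18. Each had an adjusted p of 0.563 by limma. For H2bc9, RNA-seq gave 3.91 and 2.52 RPKM in Y1CTL and 1.37 and 0.616 in Y1cKO, and Ribo-seq 10.9 and 10.8 in Y1CTL and 13.6 and 22.5 in Y1cKO. The genotypes did not overlap for H2bc9 in either assay. Without Y1CTL replicate 1, 7 histone genes were called higher, namely H1f3, H3c8, H4c2, H4c9, H4c11, H4c12 and Hist1h2an, in a fit that called 508 genes higher and 455 lower among all genes and in which a lone Y1CTL library per assay is assumed to vary like the others.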

How the data were processed

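RNA-seq and Ribo-seq of iWAT gave 8 libraries, grouped by the labels into Y1CTL and Y1cKO with 2 libraries per assay. The authors trimmed adaptors, masked sequence, used HISAT2 2.2.1 with mm8 for mapping, and deposited RPKM values in a table for each library, beside the positions and lengths of transcript and coding sequence. Counter, annotation and strandedness: not given in the sources used here. Lengths behind the deposited RPKM were those of the transcript in RNA-seq and of the coding sequence in Ribo-seq, and at least 99.9% of the RPKM values were whole reads within 0.01 read, which gave reads and depth. In the Y1cKO RNA-seq tables the headers name the other replicate number, and the labels were followed. Genes that a Ribo-seq table does not list were set to 0, and genes not in the RNA-seq tables had no RNA-seq value. Shares are over listed genes. The range of depth limits precision through counting error, and in RNA-seq both Y1cKO libraries were deeper than both Y1CTL libraries.

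Log2(RPKM + 0.5) values were tested with limma 3.58.1 in R 4.3.3, using an intensity trend. The threshold was an adjusted p of 0.05 over all genes whose mean reached 0.5 RPKM, in each assay for the interaction. A run on simulated libraries of fixed spread checked the code of the fits and not how these data vary. With 2 libraries against 2, exact tests of single values cannot pass the threshold and none was run. Alternatives changed the pseudocount, filter, scaling, length, weights, trend, block and libraries, or used limma voom on reads. Named are, per family, the 4 genes with the highest mean Ribo-seq and the 3 with the highest mean RNA-seq RPKM and those with the highest and lowest difference of the assays. Per genotype comparison, up to 4 are named in each direction beyond a log2 change of 1 whose genotypes do not overlap. For the interaction, overlap was judged on Ribo-seq minus RNA-seq of libraries with the same number. H1f1, H2ac7, H3c10, H3c11, H4c9, Hist1h2an and the genes called only without a replicate were named after their values were seen. The genes, lists and rules were chosen with earlier results of these data known, and the lists were written from general knowledge.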

Additional observations from a re-analysis of the deposited data

How the results depend on the processing

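Between the assays, the counts of histone genes called higher and lower stayed within 1.5 times 44 and 5 under all alternatives run. The median log2 difference of 2.31 was 2.09 with a pseudocount of 1 RPKM, 1.53 with the same median in all libraries, 1.59 with RNA-seq on the coding length, 1.83 with both changes, 1.76 within Y1CTL, 2.57 within Y1cKO, 2.57 without the 2 RNA-seq libraries that hold other tissues' transcripts, and 2.07 to 2.57 with a replicate left out. Of 28 named genes in this contrast, 19 kept direction and call under every alternative. H1f2 turned to -0.0397 on the coding length and H2ac21 to -0.16 with the same median. H2bc15 turned to 0.23 within Y1cKO. Calls were lost for H4c8 (0.24 on the coding length, 0.057 with the same median), H2ac15 (0.19 with the same median) and H3c13 (-0.50 within Y1cKO). H2bc4 turned to -0.26 with the same median, -1.08 on the coding length and -0.85 with both, and H4c4 to -0.25, -1.34 and -1.11. H4c12, which had no call, was at -0.37 to 0.29 with a replicate left out (0.29 without Y1CTL replicate 2 and 0.034 without Y1cKO replicate 1), 0.50 within Y1cKO, 0.17 on the coding length with the same median and 0.17 without the 2 RNA-seq libraries. The cause was not tested beyond what each setting changes. Between the genotypes in Ribo-seq, 0 to 1 genes were called higher with a replicate left out, and the median ranged from -0.0698 (without Y1cKO replicate 2) to 0.32. In RNA-seq, 0 to 2 were called, 0 to 1 higher and 0 to 2 lower. For the interaction, 0 to 7 were called, all higher, and the median ranged from 0.21 to 0.83. A lone library left in a group was assumed to vary like the others, so that these counts are not read as results. The fits without the 2 RNA-seq libraries, those on both scalings, those on genes listed in a Ribo-seq table and the crossed block were chosen after seeing the data. RNA-seq and Ribo-seq libraries of the same number did not deviate together (correlation across genes -0.14 in Y1CTL and -0.24 in Y1cKO), nor did the genotypes (-0.02 and 0.05). With 2 libraries per group, crossing the numbers only turns the sign, so that a crossed pairing is not settled by these values. The labels' numbers were taken as names. With the replicate block, 44 genes were higher and 4 lower between the assays, as with crossed pairs, and no gene was called between the genotypes or for the interaction in either form. The count of reads limits genes such as H2ac1, H2ac18 and H3c10, with 1 or 2 RNA reads in all.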
